A study of Mus musculus with 10 samples.

Results

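The enzymes that add methyl and acetyl groups to histones, and those that take them off, were examined in B cells with and without the histone demethylase LSD1. The set holds each gene of the measured table whose mouse symbol starts with Kdm, Kmt, Suv, Kat or Sirt followed by a digit, or with Setd, Ehmt, Prmt or Hdac, apart from Kdm1a, Kdm1b, Hdac1 and Hdac2. These are 67 of 9690 measured genes. They comprise 8 H3K4 methyltransferases, 6 H3K9 methyltransferases, 8 other SET-domain enzymes, 7 arginine methyltransferases, 3 H3K4 demethylases, 8 H3K9 and H3K36 demethylases, 3 H3K27 demethylases, 8 lysine acetyltransferases, 9 zinc-dependent deacetylases and 7 sirtuins. The rule used names and no measured values. Kdm4d, Kdm5d and Prmt8, which also match it, were not analysed here.

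B cells sorted from spleen, without stimulation, came from female C57BL/6J mice, and their RNA was sequenced, with RNA from 50000 cells per sample as input and poly(A) selection. There were 2 libraries of LSD1-knockout marginal zone B cells (KO MZB), 3 of wild-type marginal zone B cells (WT MZB), 3 of LSD1-knockout follicular B cells (KO FoB) and 2 of wild-type follicular B cells (WT FoB). MZB were B220+ CD21hi CD1d+ CD23- cells and FoB were B220+ CD21mid CD1d- CD23+ cells, and Thy1.1, F4/80, CD11b, CD93 and GL7 were negative in both sorts. For the Cre driver, the deleted exons, the age and the animal behind each library, nothing is given in the sources used here. A p-value therefore reflects how far these libraries scatter, and that scatter may be technical.

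Histone tails carry methyl groups on lysines and arginines and acetyl groups on lysines. Methylation of H3K4 marks active promoters and enhancers, methylation of H3K9 and H3K27 marks silenced chromatin, and acetylation opens chromatin. LSD1, encoded by Kdm1a, removes mono- and dimethyl groups from H3K4 and works with the deacetylases HDAC1 and HDAC2 in the CoREST complex, whereas the KDM5 enzymes also remove the trimethyl mark.

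Values are mRNA molecules per cell, from 4161051 to 6711847 reads per library. The median gene stood 0.32 higher on the log2 scale in KO MZB than in WT MZB, 0.05 lower in KO FoB than in WT FoB (log2 −0.05) and 0.78 higher in WT MZB than in WT FoB. Each difference is therefore given per cell, as deposited, and rescaled, after each library was divided by a trimmed mean of its log-ratios to the mean library. Fewer cells and less RNA per cell cannot be told apart in these values. Kdm1a stood at 5.37 and 5.94 mRNA per cell in KO MZB, against 6.37, 8.36 and 7.90 in WT MZB, and at 2.04, 2.36 and 1.93 in KO FoB, against 5.58 and 4.34 in WT FoB. Per cell it did not pass in KO MZB (log2 −0.39 ± 0.19, SE; limma, Benjamini-Hochberg adjusted p = 0.118) and was lower in KO FoB (log2 −1.12 ± 0.19, SE; limma adjusted p = 4.31e-05). After rescaling it was lower in KO MZB than in WT MZB (log2 −0.69 ± 0.06, SE; limma, Benjamini-Hochberg adjusted p = 0.000463) and in KO FoB than in WT FoB (log2 −1.10 ± 0.06, SE; limma adjusted p = 2.5e-05). The 6 MZB markers (Cr2, Cd1d1, Cd9, Dtx1, Myof and Asb2) fitted the sorted labels, with rescaled sums of 265 to 345 in MZB and 67.0 to 75.3 in FoB libraries. Cr2 encodes CD21 and Cd1d1 encodes CD1d, which the sort selected on, so their difference follows from the sort. Cd9, Dtx1, Myof and Asb2, not used in the sort, were also higher in WT MZB than in WT FoB (rescaled log2 3.81, 2.17, 3.87 and 3.79).

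All 67 enzymes were detected in all libraries, with at least 26 reads for the gene in each. Their levels, which are per transcript length, spanned from 0.802 mRNA per cell for Suv39h2 to 16.2 for Kmt2a as means over the 10 libraries, with a median of 4.30 over members. Kmt2a (MLL1) and Kmt2d (MLL4), which methylate H3K4 at promoters and enhancers, led in KO MZB at 25.9 ± 2.84 and 24.5 ± 1.19 (SD, n = 2). Next came Ehmt2 (G9a), which places mono- and dimethyl groups on H3K9, at 23.6 ± 2.58 (SD, n = 2), and Kmt2e (MLL5), a relative of MLL1 that binds methylated H3K4, at 21.6 ± 2.41 (SD, n = 2). Most other roles had a leading member of similar size, given here as means in KO MZB, WT MZB, KO FoB and WT FoB in that order. Setd2, which trimethylates H3K36, stood at 16.4, 13.0, 7.44 and 7.38. Kdm2a, which demethylates H3K36, stood at 20.1, 16.1, 9.03 and 9.66. Kat6a (MOZ), an acetyltransferase needed in blood stem cells, stood at 18.4, 13.2, 11.0 and 11.0. In each of these 3, KO MZB had the highest mean. Kdm5c stood at 12.1, 9.58, 5.33 and 5.64, and Kdm7a, which acts on H3K9 and H3K27, at 8.80, 8.05, 6.17 and 5.49. MZB means were thus above FoB means for each of these, and the highest mean was that of KO MZB for 65 of 67 members and that of WT MZB for 2, Suv39h2 and Sirt1. Summed over all 67, the enzymes made up 0.477 to 0.518% of the measured mRNA of a library, a narrow range, although the sum itself was 513 and 597 mRNA per cell in KO MZB, 374, 476 and 443 in WT MZB, 248, 266 and 221 in KO FoB and 287 and 234 in WT FoB.

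**Figure D1:**
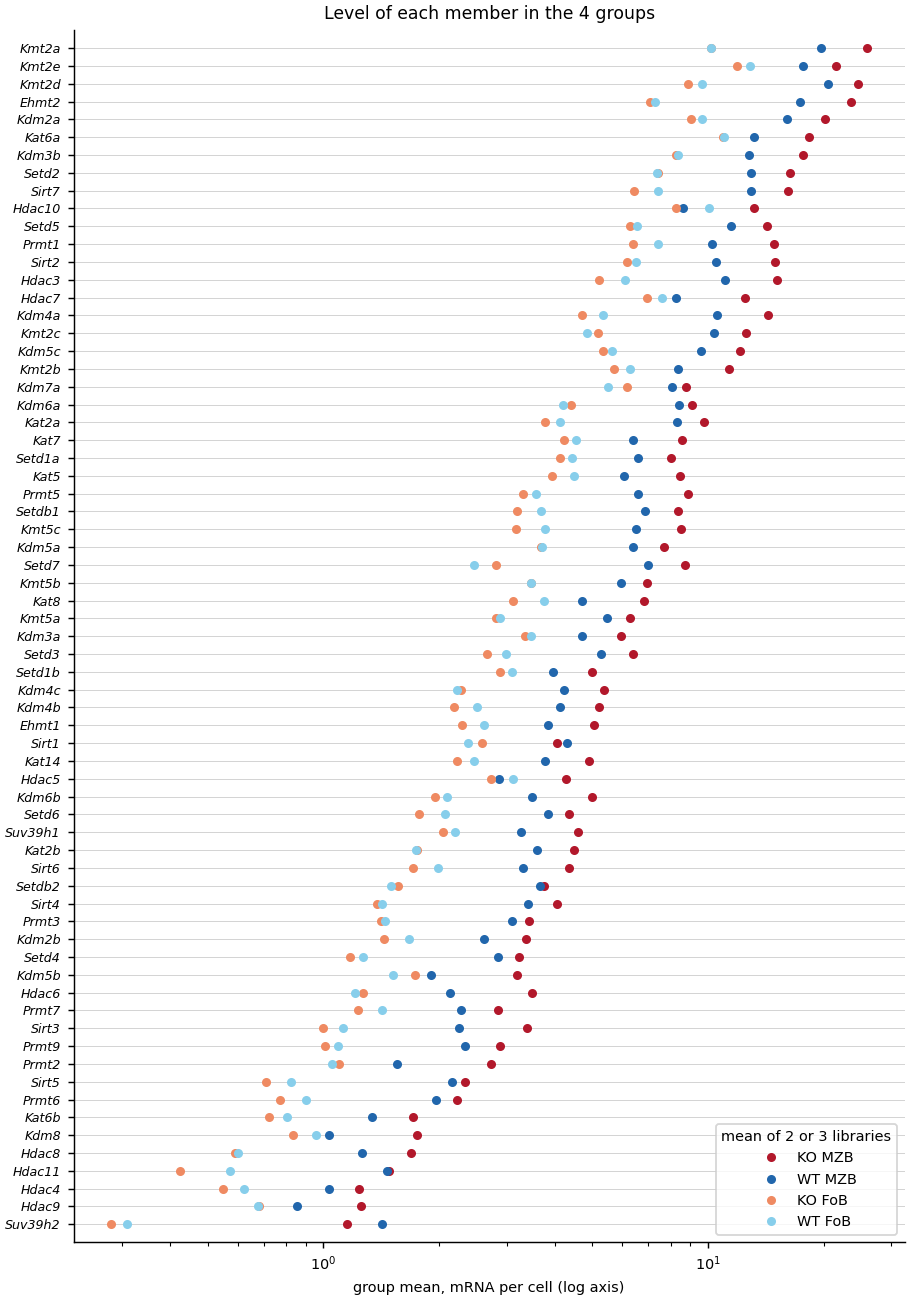
Group means of mRNA per cell (log axis) for each of the 67 enzymes, ordered by the mean over all libraries, with 1 point per group (2 or 3 libraries each). KO MZB points lie farthest to the right for 65 members, and the FoB points of nearly all members lie to the left of the MZB points.

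The first comparison, KO MZB against WT MZB, addresses how loss of LSD1 bears on the levels of these enzymes in marginal zone B cells. Per cell, 8 of 67 members rose (11.9%) and 0 fell by limma at a Benjamini-Hochberg adjusted p under 0.05, against a background of 13.3% of all genes called higher and 0.702% called lower. The members that rose were the arginine methyltransferase gene Prmt2, the demethylase genes Kdm5b and Kdm8, the deacetylase genes Hdac5, Hdac6, Hdac7 and Hdac10, and the sirtuin gene Sirt3. Their means in KO MZB were 1.49 to 1.75 times those in WT MZB. The median member stood at a log2 difference of 0.33, beside 0.32 for all genes. After rescaling 1 member rose (1.49%), Kdm5b, and 0 fell, against 3.36 and 1.90% of all genes, and the median member stood at 0.01, beside 0.02 for all genes. At an unadjusted p under 0.05, 26 members (38.8%) passed per cell and 14 (20.9%) after rescaling, beside 38.7 and 22.9% of all genes. Called shares of members were thus near or below the background on either scale. In simulated data the per-cell test made more false calls than its threshold allows. The spread in the per-cell test was drawn mainly from all genes together and less from the gene itself (limma prior degrees of freedom 86.9, against 5 after rescaling). The per-cell count of 8 became 0 without KO MZB library 2, 4 without KO MZB library 1, 1 without WT MZB library 1, 17 without WT MZB library 2, 4 without WT MZB library 3 and 5 without KO FoB library 1. The rescaled count of 1 became 0 without any single one of the MZB libraries, 4 without KO FoB library 3, and 5 with limma voom on reads or on the compared groups alone, and without KO FoB library 1 or 2 the 1 member called was Hdac7 or Suv39h2 in place of Kdm5b.

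**Figure D2:**
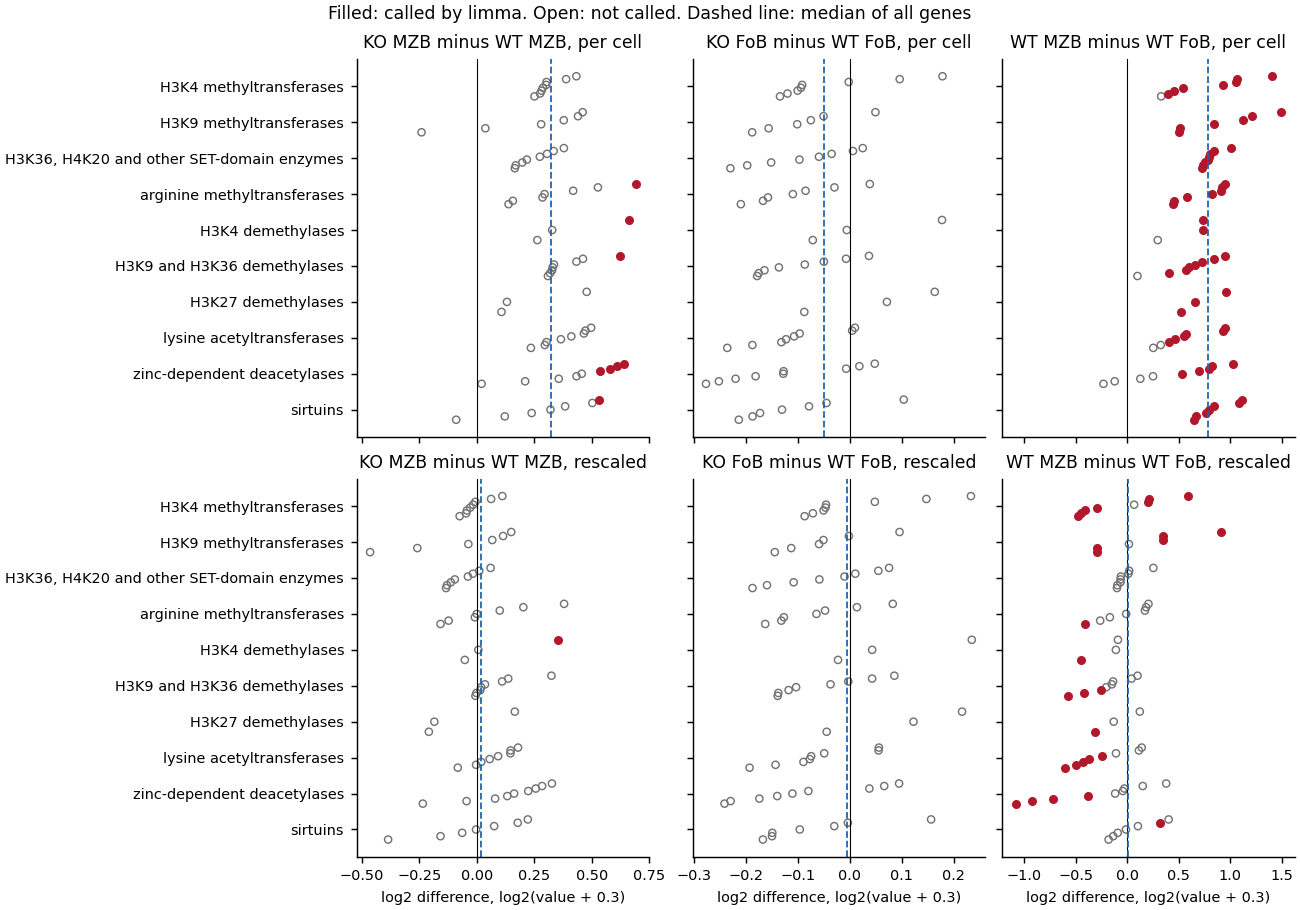
Log2 differences of the 67 enzymes by role, on the log2(value + 0.3) scale, per cell (top row) and rescaled (bottom row), for KO MZB minus WT MZB, KO FoB minus WT FoB and WT MZB minus WT FoB. Filled points passed limma at an adjusted p under 0.05, and the dashed line is the median of all genes, 0.32, −0.05 and 0.78 per cell.

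Kdm5b (Entrez 75605; chromosome 1, 134560178 to 134632878 on GRCm38.p6, the assembly of mm10) encodes a demethylase that removes di- and trimethyl groups from H3K4. It stood at 2.94 and 3.45 mRNA per cell in KO MZB, against 1.69, 2.12 and 1.91 in WT MZB. After rescaling it stood at 1.91 and 1.96 in KO MZB, against 1.50, 1.44 and 1.41 in WT MZB. On either scale both knockout libraries lay above all 3 wild-type libraries. The same held for 46 of 67 members (68.7%) per cell and 17 (25.4%) after rescaling, beside 24.2% of all genes after rescaling. The per-cell share of all genes is not given here, and per cell the median gene stood 0.32 higher in KO MZB (log2). The log2 difference of Kdm5b was 0.66 ± 0.19 per cell (SE; limma, Benjamini-Hochberg adjusted p = 0.0114) and 0.35 ± 0.09 after rescaling (SE; limma adjusted p = 0.0481). Over 19 alternatives the rescaled difference ranged between 0.26 and 0.41 and the limma adjusted p between 0.00692 and 0.296, with 10 below 0.05. Among the settings that ended the call were a pseudocount of 1 (limma adjusted p = 0.0527) and leaving out any single MZB library (0.109 to 0.296), KO FoB library 1 (0.0528) or KO FoB library 2 (0.052). The direction did not turn in any of them. In FoB, Kdm5b stood at 2.62, 2.49 and 2.44 rescaled mRNA per cell in KO FoB, against 2.29 and 1.91 in WT FoB. All 3 knockout libraries again lay above both wild-type libraries, but the log2 difference of 0.23 ± 0.09 (SE) did not pass (limma adjusted p = 0.285). The difference between the knockout effects in MZB and FoB, 0.12 ± 0.13 rescaled (SE), did not pass either (limma adjusted p = 0.604).

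Markers of the sorted and of other cell types moved in the same comparison. The MZB markers summed to 265 to 276 rescaled mRNA per cell in KO MZB and 314 to 345 in WT MZB, with Cr2 and Asb2 called lower after rescaling. Cr2, the largest part of the sum, stood at a mean of 158 in KO MZB and 206 in WT MZB. Cd9, Dtx1, Myof and Asb2 also lay below WT MZB in every library after rescaling, and Cd1d1 overlapped. Per cell the sums of the MZB markers overlapped, at 427 to 467 in KO MZB and 389 to 466 in WT MZB, and 0 were called lower. The FoB markers Fcer2a, which encodes CD23, and Klf2 were called higher, with rescaled log2 differences of 1.03 ± 0.14 and 0.65 ± 0.08 (SE; limma adjusted p = 0.00319 and 0.00247). Of the 35 listed markers of T, myeloid, plasma, dendritic, NK, erythroid, platelet and cycling cells, 12 were measured, and in KO MZB 6 of them, Lck, Itgam, Ly6c2, Flt3, Cst3 and Itgb3, were called higher after rescaling. The summed rescaled level of Itgam, Ly6c2 and Cd68 was 4.92 to 5.89 in KO MZB and 1.80 to 3.27 in WT MZB, and that of Flt3 and Cst3 was 12.7 to 15.0 in KO MZB and 9.11 to 9.48 in WT MZB. Lck stood at 4.60 to 4.79 in KO MZB and 2.71 to 3.37 in WT MZB, and Itgb3 at 1.36 in KO MZB and 0.673 to 0.779 in WT MZB. None of the NK cell and erythroid markers and 1 of 7 T cell markers was measured, and no measured marker had 0 reads in a library. The part of other cells in the members' values was not tested.

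The promoter window of Kdm5b is shown because it is the member called on both scales, and that of Hdac5 as 1 of the 7 members that rose per cell without a call after rescaling, picked with the values known. Windows run from 250 bases before to 50 after the gene start, from RefSeq on GRCm38.p6, 5′ to 3′ on the gene's strand. That of Kdm5b is chr1:134559928-134560227 (+) and that of Hdac5 is chr11:102230123-102230422 (-). Capitals mark AATC, the core of GFI1 sites (GFI1 is a repressor that recruits LSD1), and GGGCGG, the GC box, on either strand.
Kdm5b: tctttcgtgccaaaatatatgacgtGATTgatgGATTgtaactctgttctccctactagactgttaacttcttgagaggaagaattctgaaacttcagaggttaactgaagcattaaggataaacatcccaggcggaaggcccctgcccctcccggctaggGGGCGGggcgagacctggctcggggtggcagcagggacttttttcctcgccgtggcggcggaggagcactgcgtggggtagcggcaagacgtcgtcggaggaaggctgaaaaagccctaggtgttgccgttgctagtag
Hdac5: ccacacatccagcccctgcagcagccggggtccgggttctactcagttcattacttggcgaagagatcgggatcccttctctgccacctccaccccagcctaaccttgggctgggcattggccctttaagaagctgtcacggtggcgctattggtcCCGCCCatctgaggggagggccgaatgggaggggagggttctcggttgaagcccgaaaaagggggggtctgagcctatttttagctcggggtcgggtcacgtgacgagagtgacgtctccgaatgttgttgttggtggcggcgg
The letters AATC or its complement GATT occur 2 times in the Kdm5b window and 0 times in the Hdac5 window, beside 73.1% of the 32851 windows of all genes with at least 1 match. Among the other members that rose per cell, the window of Kdm8 holds 3, that of Hdac6 holds 2 and that of Prmt2 holds 0, the 2 windows of Sirt3 hold 1 and 2, and the 4 windows of Hdac7 hold 0 or 1. GGGCGG or CCGCCC occurs 1 time in the Kdm5b window and 1 time in the Hdac5 window. At least 1 match is held by 35.7% of all windows and 64.1% of the 78 windows of the 56 members with an entry. The Kdm5b and Hdac5 windows hold 17 and 18 CpG dinucleotides, beside a median of 21 in member windows and 7 in all windows. Of the member windows, 57.7% hold AATC or GATT. Of the other 2 motifs searched on both strands, GGAA, the core of ETS sites, occurs 4 times in the Kdm5b window and 0 times in that of Hdac5 (96.0% of all windows), and the E-box CACGTG 0 times and 1 time (7.15%). A match describes letters only.

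The other H3K4 demethylases measured were Kdm5a and Kdm5c, which also remove the trimethyl mark. Kdm5c, which is X-linked, stood at 7.31 ± 0.570 rescaled mRNA per cell in KO MZB (SD, n = 2) and 7.27 ± 0.0757 in WT MZB (SD, n = 3), a log2 difference of 0.01 ± 0.07 (SE). Kdm5a stood at 4.66 ± 0.174 in KO MZB (SD, n = 2) and 4.84 ± 0.207 in WT MZB (SD, n = 3), a log2 difference of −0.05 ± 0.07 (SE), so that neither passed. The ratio of Kdm5b to Kdm5c within a library does not depend on how libraries are scaled. It was 0.276 and 0.254 in KO MZB, against 0.207, 0.196 and 0.196 in WT MZB, and 0.348, 0.321 and 0.307 in KO FoB, against 0.289 and 0.244 in WT FoB. In either cell type every knockout library had the higher ratio. These pairs of enzymes for ratios were chosen after their values had been seen.

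Of the 9 zinc-dependent deacetylases, 4 rose per cell in KO MZB and 0 fell, beside 13.3 and 0.702% of all genes. After rescaling 0 passed, beside 3.36% of all genes called higher and 1.9% called lower. Their median log2 difference was 0.46 per cell and 0.16 rescaled, beside 0.32 and 0.02 for all genes. Hdac6, a mainly cytoplasmic enzyme that deacetylates tubulin, stood at 3.38 and 3.61 mRNA per cell in KO MZB, against 1.94, 2.18 and 2.30 in WT MZB. Its log2 difference was 0.64 ± 0.19 per cell (SE; limma adjusted p = 0.0146) and 0.33 ± 0.10 rescaled (SE; limma adjusted p = 0.0901). Hdac10, which deacetylates polyamines, stood at 12.3 and 14.0 in KO MZB, against 6.89, 9.50 and 9.41 in WT MZB, with log2 differences of 0.61 ± 0.20 per cell (SE; limma adjusted p = 0.0272) and 0.28 ± 0.07 rescaled (SE; limma adjusted p = 0.0531). Neither passed after rescaling in the main fit. Rescaled Hdac10 was called with limma voom on reads (limma adjusted p = 0.0307), on the compared groups alone (0.0486) and without KO FoB library 3 (0.0352). Rescaled Hdac6 was called with limma voom on reads (limma adjusted p = 0.0256) and without KO FoB library 3 (0.045). Hdac7, a class IIa enzyme that represses genes of other lineages in lymphocytes, stood at 11.6 and 13.4 in KO MZB, against 7.32, 9.24 and 8.29 in WT MZB (log2 0.58 ± 0.19 per cell, SE; limma adjusted p = 0.0346). After rescaling it was called on the compared groups alone (limma adjusted p = 0.0467) and without KO FoB library 1 (0.0432), but not in the main fit. Hdac5, of the same class, stood at 3.80 and 4.77 in KO MZB, against 2.32, 3.17 and 3.12 in WT MZB (log2 0.54 ± 0.19 per cell, SE; limma adjusted p = 0.0436). For all 4, both KO MZB libraries lay above the 3 WT MZB libraries, per cell and after rescaling. They are among the 46 members (68.7%) that did so per cell and the 17 (25.4%) after rescaling, beside 24.2% of all genes after rescaling. The per-cell share of all genes is not given here. Hdac3, the catalytic subunit of the NCoR complex, stood at 15.2 ± 0.457 in KO MZB (SD, n = 2) and 11.1 ± 1.73 in WT MZB (SD, n = 3) and did not pass (log2 0.46 ± 0.19, SE). The lowest difference was that of Hdac11, the class IV enzyme, at 0.02 per cell and −0.24 rescaled.

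Kdm8, named as an H3K36 demethylase and also described as a protein hydroxylase, stood at 1.65 and 1.85 mRNA per cell in KO MZB, against 0.983, 1.15 and 0.974 in WT MZB, on a mean of 70.1 reads. Its log2 difference was 0.62 ± 0.18 per cell (SE; limma adjusted p = 0.0171) and 0.32 ± 0.10 rescaled (SE; limma adjusted p = 0.0878), with both KO MZB libraries above all WT MZB libraries. None of the other 7 H3K9 and H3K36 demethylases passed on either scale, and the rescaled differences of the 8 ranged from −0.01 (Kdm2a) to 0.32 (Kdm8). The 3 H3K27 demethylases did not pass. After rescaling, Kdm6a (UTX), which is X-linked and escapes X inactivation, stood at 5.55 and 5.47 in KO MZB, below the 6.62, 6.41 and 6.21 of WT MZB in every library (log2 −0.21 ± 0.07, SE; limma adjusted p = 0.0985). Kdm6b (JMJD3), its inducible relative, stood at 2.85 and 3.18 in KO MZB, above the 2.61, 2.63 and 2.72 of WT MZB (log2 0.17 ± 0.08, SE; limma adjusted p = 0.242). The paralogs thus lay on opposite sides of their controls without either passing.

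Prmt2, a weak arginine methyltransferase and coactivator of nuclear receptors, was the only one of 7 arginine methyltransferases called in KO MZB. It stood at 2.32 and 3.12 mRNA per cell in KO MZB, against 1.46, 1.49 and 1.73 in WT MZB, on a mean of 86.5 reads, with a log2 difference of 0.69 ± 0.18 per cell (SE; limma adjusted p = 0.00697) and 0.38 ± 0.13 rescaled (SE; limma adjusted p = 0.121). The knockout libraries lay above all wild-type libraries, and the per-cell call was held in 15 of 16 alternatives, the most of the 8 members. Prmt1, the main source of asymmetric dimethylarginine, stood at 14.2 and 15.6 in KO MZB, against 8.84, 11.8 and 10.2 in WT MZB, and did not pass (log2 0.53 ± 0.19, SE; limma adjusted p = 0.0524).

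Among the 7 sirtuins, the NAD-dependent deacylases, Sirt3 of the mitochondrial matrix rose per cell, to 2.94 and 3.84 mRNA per cell in KO MZB, against 1.95, 2.32 and 2.48 in WT MZB, on a mean of 71.7 reads. Its log2 difference was 0.53 ± 0.19 per cell (SE; limma adjusted p = 0.043) and 0.22 ± 0.09 rescaled (SE; limma adjusted p = 0.177). Exons of Sirt3 overlap those of Psmd13 on the other strand, and without knowledge of the strand setting of the counting its reads are uncertain. The nuclear deacetylase gene Sirt1 stood at 2.32 and 2.57 rescaled mRNA per cell in KO MZB, against 3.35, 3.14 and 3.35 in WT MZB. All knockout values lay below the wild-type values, and the difference did not pass in the main fit (log2 −0.39 ± 0.16, SE; limma adjusted p = 0.168). It was called lower on the compared groups alone (limma adjusted p = 0.0243) and without KO FoB library 3 (0.0142), a library in which Sirt1 stood at 5.01 rescaled. Per cell its log2 difference was −0.09, 1 of only 2 below 0 among the 67 members. Sirt7, a nucleolar deacetylase and the highest of the family, whose exons overlap Mafg on the same strand, stood at 9.77 ± 0.291 rescaled mRNA per cell in KO MZB (SD, n = 2) and 9.82 ± 0.923 in WT MZB (SD, n = 3).

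**Figure D3:**
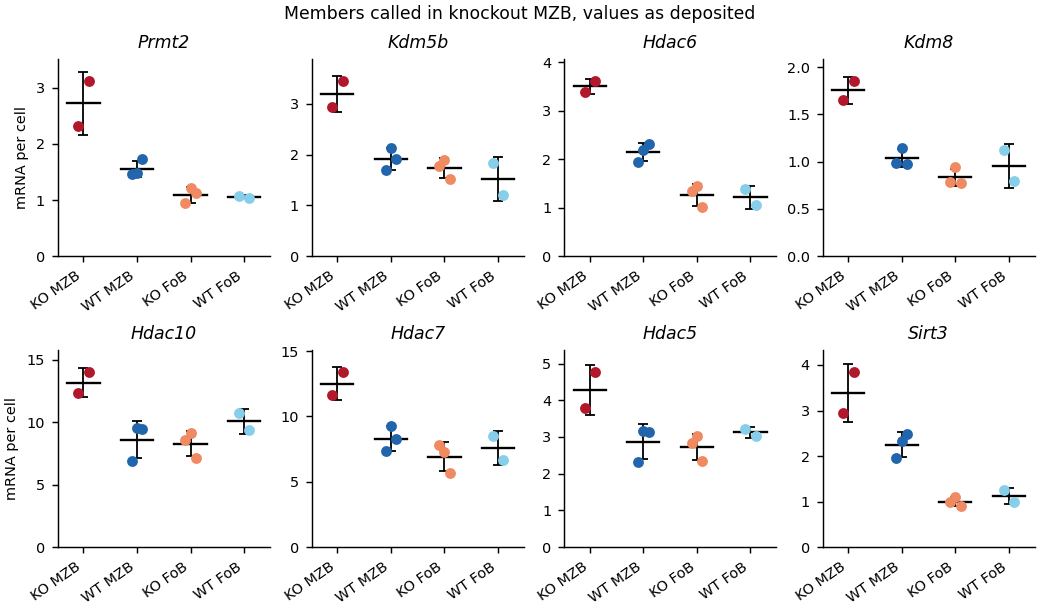
mRNA per cell in each library (points) with group means and SD (bars) for the 8 members called higher per cell in KO MZB, for KO MZB (2 libraries), WT MZB (3), KO FoB (3) and WT FoB (2). In each panel both KO MZB libraries lie above the 3 WT MZB libraries, as they do for 46 of all 67 members. The per-cell share of all genes that do so is not given here. The KO FoB and WT FoB libraries stand apart by a ratio of 0.823 to 1.14 as means.

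None of the 8 H3K4 methyltransferases, 6 H3K9 methyltransferases and 8 other SET-domain enzymes passed in KO MZB on either scale. The 8 H3K4 methyltransferases ranged per cell from 0.25 (Kmt2d) to 0.43 (Kmt2b), and after rescaling from −0.07 (Kmt2d) to 0.11 (Kmt2b), so that the rescaled levels lay within 0.11 of WT MZB on the log2 scale. Kmt2b (MLL2), which had the smallest p among them, stood at 6.78 and 6.99 rescaled mRNA per cell in KO MZB, against 6.59, 6.17 and 6.31 in WT MZB. The 6 H3K9 methyltransferases spread further, from −0.46 (Suv39h2) to 0.15 (Suv39h1) after rescaling. Suv39h2, which trimethylates H3K9 in heterochromatin, stood at 0.774 and 0.629 in KO MZB, against 1.11, 0.972 and 1.16 in WT MZB, with all knockout values below all wild-type values, on a mean of 80.7 reads (log2 −0.46 ± 0.17, SE; limma adjusted p = 0.146). It was called lower with limma voom on reads (log2 −0.63, Benjamini-Hochberg adjusted p = 0.0368) and with limma on the compared groups alone (−0.46, adjusted p = 0.0438). Its paralog Suv39h1 stood at 2.72 and 2.83 in KO MZB, against 2.40, 2.67 and 2.36 in WT MZB, on the other side of its controls (log2 0.15 ± 0.08, SE). Setdb2, which represses inflammatory genes in macrophages, stood at 2.31 and 2.23 in KO MZB, against 2.81, 2.80 and 2.71 in WT MZB (log2 −0.26 ± 0.09, SE; limma adjusted p = 0.106). It was called lower with limma voom on reads (log2 −0.29, adjusted p = 0.0382). Among the 8 other SET-domain enzymes, the smallest p was that of Kmt5c per cell, which trimethylates H4K20, at 8.53 in KO MZB and 6.49 in WT MZB (log2 0.38 ± 0.19, SE), and that of Setd6, which methylates the NF-kB subunit RelA, after rescaling, at 2.65 in KO MZB and 2.93 in WT MZB (log2 −0.13 ± 0.10, SE).

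The 8 lysine acetyltransferases did not pass in KO MZB on either scale. Per cell they ranged from 0.24 (Kat2a) to 0.50 (Kat8) and after rescaling from −0.08 (Kat2a) to 0.18 (Kat8). Kat8 (MOF), which acetylates H4K16, stood at 5.83 and 7.79 mRNA per cell in KO MZB, against 4.04, 4.75 and 5.36 in WT MZB (log2 0.50 ± 0.19, SE; limma adjusted p = 0.0654). Kat5 (TIP60), whose exons overlap Rnaseh2c on the other strand, stood at 5.10 and 5.14 rescaled in KO MZB, against 4.54, 4.30 and 4.99 in WT MZB (log2 0.15 ± 0.08, SE). Summed per library, the deacetylases stood at 0.905 and 0.823 times the acetyltransferases in KO MZB and at 0.781, 0.766 and 0.833 times in WT MZB, which overlap. Over all 67 members, 17 (25.4%) lay above WT MZB in each KO MZB library after rescaling and 7 (10.4%) below, beside 24.2 and 21.4% of all genes. The 7 below were Suv39h2, Sirt1, Setdb2, Hdac11, Kdm6a, Kmt5b and Kat2a, named after their values had been seen.

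Knockout FoB were compared with wild-type FoB in the same way. No member passed per cell or after rescaling, with limma, on any of the alternatives or with limma voom, against 0.712% of all genes called per cell and 0.588% after rescaling. At an unadjusted p under 0.05, 0 members passed per cell and 4 (5.97%) after rescaling, beside 3.85 and 14.6% of all genes. Rescaled log2 differences ran from −0.24 (Hdac11) to 0.23 (Kdm5b) with SEs of 0.06 to 0.175, and the median member stood at −0.05, beside −0.01 for all genes. The smallest p was that of Hdac10, at 12.6, 12.0 and 11.4 rescaled mRNA per cell in KO FoB, against 13.5 and 14.8 in WT FoB. Every knockout value lay below the wild-type values (log2 −0.23 ± 0.07, SE; limma adjusted p = 0.236). Setd7, which adds 1 methyl group to H3K4 and to other proteins, stood at 4.14, 3.73 and 4.46 in KO FoB, against 3.51 and 3.37 in WT FoB, with the knockout values above (log2 0.23 ± 0.09, SE; limma adjusted p = 0.277). The 8 members called in KO MZB are given per cell, apart from Kdm5b above and Sirt3, which is given rescaled. Hdac6 stood at 1.34, 1.45 and 1.01 in KO FoB, against 1.38 and 1.05 in WT FoB. Prmt2 stood at 0.941, 1.22 and 1.13 in KO FoB, against 1.07 and 1.04 in WT FoB. For both the groups overlapped. Sirt3 stood at 1.47, 1.43 and 1.44 rescaled in KO FoB, against 1.56 and 1.58 in WT FoB, with the knockout values below, and did not pass (log2 −0.10 ± 0.09, SE; limma adjusted p = 0.645). Hdac7 stood at 7.83, 7.31 and 5.65 per cell in KO FoB, against 8.52 and 6.65 in WT FoB. Hdac5 stood at 2.82, 3.03 and 2.34 in KO FoB, against 3.23 and 3.02 in WT FoB. Hdac10 stood at 8.56, 9.14 and 7.15 in KO FoB, against 10.8 and 9.37 in WT FoB. These deacetylases had the lower mean in KO FoB, and none passed. Kdm8 stood at 0.789, 0.939 and 0.775 in KO FoB, against 1.12 and 0.789 in WT FoB. Of the 67 members, 18 (26.9%) lay below WT FoB in every KO FoB library after rescaling and 7 (10.4%) above, beside 16.3 and 14.9% of all genes. Markers of other cells moved in FoB too: Itgam, Ly6c2 and Flt3 were called higher in KO FoB after rescaling, and Itgam, Ly6c2 and Cd68 summed to 4.63 to 6.49 in KO FoB and 1.77 to 2.41 in WT FoB. Their part in the members' values was not tested. The 7 members above WT FoB, named after their values had been seen, were Kdm4c, Kdm5a, Kdm5b, Kdm6a, Kdm7a, Kmt2c and Setd7.

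The knockout effect in MZB minus that in FoB was tested for each member, and 0 passed on either scale, against 2.34% of all genes per cell and 0.310% after rescaling. At an unadjusted p under 0.05, 19 members (28.4%) passed per cell and 14 (20.9%) after rescaling, beside 27.5 and 22.8% of all genes. Hdac10 came nearest, with a difference of 0.89 ± 0.28 per cell (SE; limma adjusted p = 0.0627) and 0.51 ± 0.11 rescaled (SE; limma adjusted p = 0.0727), and it passed with limma voom on reads and, on either scale, without KO FoB library 2. The per-cell count of 0 became 3 without WT MZB library 2 (Hdac10, Kdm8 and Prmt1), 2 without KO FoB library 2 (Hdac10 and Kat8) and 1 without WT FoB library 2 (Kat8). The knockout effects on Hdac10 were 0.28 in MZB and −0.23 in FoB after rescaling.

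Wild-type MZB were compared with wild-type FoB to give the cell type difference against which the knockout values stand. These comparisons share the WT MZB or WT FoB libraries with those above. Per cell, 58 of 67 members were higher in WT MZB (86.6%) and 0 were lower, against 84.2 and 1.67% of all genes. After rescaling, 7 were higher (10.4%) and 21 were lower (31.3%), against 25.0 and 24.9% of all genes, and the median member stood at −0.10, beside 0.00 for all genes. Of the 21 members that were lower after rescaling, 19 had a per-cell difference above 0 and 12 of those were called higher per cell, so that their direction rests on the scale. Hdac5 and Hdac10 had differences below 0 on both scales, −0.12 and −0.23 per cell. The 7 members that were higher after rescaling were also called higher per cell. The rescaled count of 28 became 17 without WT FoB library 1.

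Hdac10 had the largest difference, at 6.10, 6.46 and 6.94 rescaled mRNA per cell in WT MZB, against 13.5 and 14.8 in WT FoB (log2 −1.09 ± 0.07, SE; limma adjusted p = 6.98e-07). Hdac5 followed, at 2.05, 2.15 and 2.30 in WT MZB, against 4.05 and 4.76 in WT FoB (log2 −0.93 ± 0.09, SE; limma adjusted p = 1.23e-05). Hdac7 stood at 6.48, 6.28 and 6.11 in WT MZB, against 10.7 and 10.5 in WT FoB (log2 −0.72 ± 0.09, SE; limma adjusted p = 7.83e-05). After rescaling the groups did not overlap for any of these 3 deacetylases. In all, 31 of 67 members (46.3%) lay below WT FoB in every WT MZB library after rescaling, and 17 (25.4%) lay above. The matching shares of all genes are not given here, so these counts have no background. Hdac9, another class IIa gene, was lower in WT MZB after rescaling as well (log2 −0.38 ± 0.14, SE; limma adjusted p = 0.0375). Per cell none of the 4 passed: WT MZB and WT FoB overlapped for Hdac10, Hdac5 and Hdac7, and the log2 differences of Hdac7 and Hdac9 were above 0, at 0.13 and 0.25. The class I enzymes Hdac3 and Hdac8 and the class II enzymes Hdac4 and Hdac6 did not pass after rescaling, with log2 differences of −0.03, 0.15, −0.12 and −0.04. KO MZB held 7.99 and 7.95 of Hdac10, 2.46 and 2.71 of Hdac5 and 7.54 and 7.61 of Hdac7, between the WT MZB and WT FoB values in each case. These 3 were picked for low values in WT MZB, and both comparisons use the same WT MZB libraries. No shift towards FoB can therefore be read from these places.

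In the other direction, Suv39h2 stood at 1.11, 0.972 and 1.16 in WT MZB, against 0.422 and 0.440 in WT FoB (log2 0.92 ± 0.17, SE; limma adjusted p = 0.00137). The 4 cycling markers Mki67, Top2a, Ccnb1 and Cdk1 moved with it, summing to 10.5 to 13.8 rescaled mRNA per cell in WT MZB and 1.58 to 1.93 in WT FoB, and their part was not tested. In KO MZB they summed to 13.8 to 17.5, with 0 called against WT MZB after rescaling and 4 called higher per cell. Rescaled Suv39h2 lay below WT MZB there without passing in the main fit. The part of cycling cells was not tested there either. Setd7 stood at 5.64, 5.33 and 5.03 in WT MZB, against 3.51 and 3.37 in WT FoB (log2 0.59 ± 0.09, SE; limma adjusted p = 0.00025). Exons of Setd7 overlap the gene 5031434O11Rik on the other strand, so that its reads are uncertain. Ehmt2 stood at 12.9, 12.3 and 14.4 in WT MZB, against 9.49 and 11.0 in WT FoB (log2 0.35 ± 0.10, SE; limma adjusted p = 0.0122). Its partner in the same complex, Ehmt1 (GLP), was lower in WT MZB after rescaling (log2 −0.29 ± 0.08, SE; limma adjusted p = 0.014) but higher per cell (log2 0.51 ± 0.19, SE; limma adjusted p = 0.01). The remaining members that were higher were Setdb2 (0.35), the mitochondrial sirtuin Sirt4 (0.31), and Kmt2c and Kmt2d (0.21 and 0.20), the paired MLL3 and MLL4 enzymes of enhancers.

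**Figure D4:**
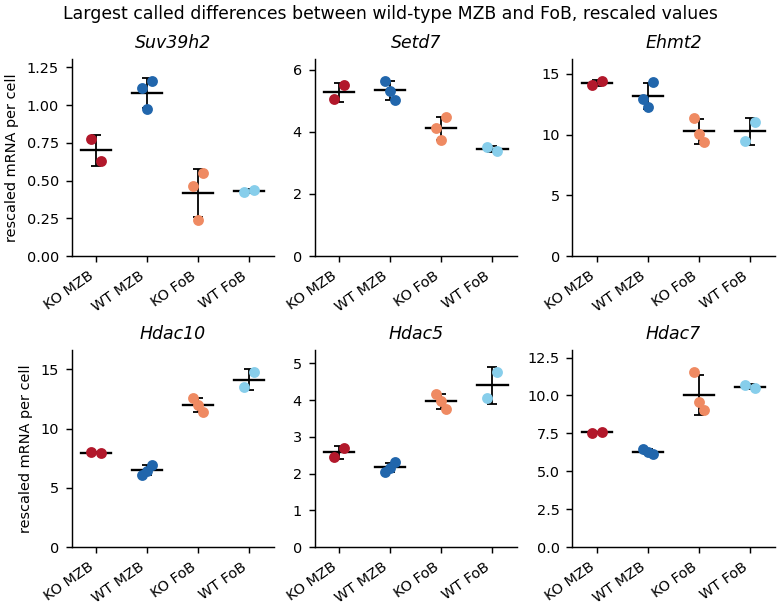
Rescaled mRNA per cell in each library (points) with group means and SD (bars) for the 3 called members with the largest rescaled difference in each direction between WT MZB and WT FoB, in KO MZB (2 libraries), WT MZB (3), KO FoB (3) and WT FoB (2). Suv39h2, Setd7 and Ehmt2 stand higher in WT MZB than in WT FoB, and Hdac10, Hdac5 and Hdac7 stand lower.

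By role, H3K4 methyltransferases divided in WT MZB, with 3 of 8 higher (Setd7, Kmt2c and Kmt2d) and 4 lower after rescaling, beside 25.0 and 24.9% of all genes. Those that were lower were Setd1b (−0.48) and Setd1a (−0.30), which place most of the trimethyl mark at promoters, Kmt2b (−0.45) and Kmt2e (−0.41), whose exons overlap Srpk2 on the other strand. Per cell all 4 had differences above 0, and Setd1a, Kmt2b and Kmt2e were called higher in WT MZB. Kmt2a stood at 15.0 ± 0.675 rescaled in WT MZB (SD, n = 3) and 14.3 ± 0.704 in WT FoB (SD, n = 2), a difference that did not pass. Of the 8 acetyltransferases, 5 were lower in WT MZB and 0 higher after rescaling, beside 24.9 and 25.0% of all genes. Kat6a led the 5, at 10.3, 10.6 and 9.06 in WT MZB, against 15.9 and 14.8 in WT FoB (log2 −0.61 ± 0.08, SE; limma adjusted p = 0.000134). The others were Kat8 (−0.50), Kat5 (−0.43), Kat7 (HBO1, −0.37) and Kat14 (−0.25), a subunit of the ATAC complex. The related Kat2a (GCN5) and Kat2b (PCAF) did not pass, at 0.11 and 0.14. Per cell all 5 had differences above 0, and Kat5, Kat7 and Kat14 were called higher in WT MZB, so that the 5 are lower after rescaling only.

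Among demethylases, Kdm5b was lower in WT MZB after rescaling (log2 −0.45 ± 0.09, SE; limma adjusted p = 0.0018), with 1.45 ± 0.0468 in WT MZB (SD, n = 3) and 2.10 ± 0.270 in WT FoB (SD, n = 2). KO MZB stood between them at 1.93 ± 0.0371 (SD, n = 2), with the same WT MZB libraries in both comparisons. Kdm8 (−0.58), the H3K9 demethylase genes Kdm3a (−0.42) and Kdm3b (−0.26), and Kdm7a (−0.32) were lower too. Per cell these had differences above 0, and Kdm3a, Kdm3b and Kdm7a were called higher. The KDM4 enzymes and both KDM2 enzymes did not pass after rescaling. Of the arginine methyltransferases Prmt1 was lower after rescaling (−0.41) and 6 did not pass. Per cell all 7 were called higher, Prmt1 with 0.45, beside 84.2% of all genes called higher. After rescaling, of the 8 other SET-domain enzymes 0 passed, beside 25.0% of all genes called higher and 24.9% called lower. Their differences ran from −0.10 (Kmt5b) to 0.25 (Setd4).

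Ratios within a library do not depend on its scaling. Setd7 stood at 0.855, 0.863 and 0.797 times Kmt2b in WT MZB, against 0.408 and 0.376 in WT FoB, and at 0.743 and 0.785 in KO MZB and 0.473, 0.446 and 0.580 in KO FoB. Hdac7 stood at 0.807, 0.782 and 0.675 times Hdac3 in WT MZB, against 1.27 and 1.21 in WT FoB, with 0.785 and 0.865 in KO MZB and 1.40, 1.26 and 1.32 in KO FoB. MZB and FoB libraries did not overlap in either ratio. Ehmt1 stood at 0.232, 0.251 and 0.186 times Ehmt2 in WT MZB, against 0.403 and 0.312 in WT FoB.

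**Figure D5:**
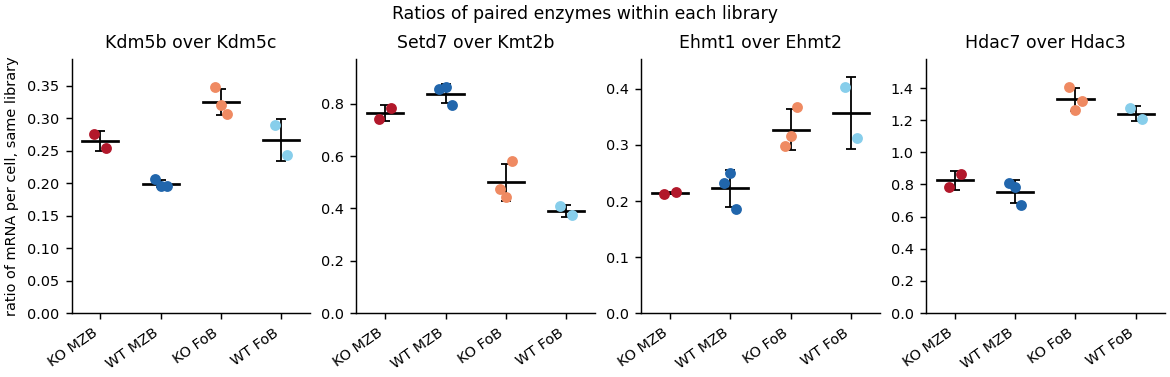
Ratio of mRNA per cell of paired enzymes in each library (points) with group means and SD (bars), which is free of library scaling, for KO MZB (2 libraries), WT MZB (3), KO FoB (3) and WT FoB (2). The ratio of Kdm5b to Kdm5c is higher in KO MZB than in WT MZB in every library, and the other 3 ratios separate MZB from FoB libraries.

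In the knockout comparisons, genes outside the naming rule gave little more. Of 35 chromatin enzymes with other names, such as Ezh2, Dot1l, Crebbp and Ep300, 1 rose per cell in KO MZB (Ncoa3) and 0 passed after rescaling. Of 51 complex subunits, 4 rose per cell (Ing4, Pagr1a, Sgf29 and Tada2a), where 13.3% of all genes were called higher. After rescaling 0 of the 51 rose and 1 fell, beside 3.36 and 1.90% of all genes. That gene was Tbl1xr1, a subunit of the NCoR complex that holds HDAC3, at 8.41 and 8.07 rescaled mRNA per cell in KO MZB, against 10.9, 10.4 and 10.1 in WT MZB (log2 −0.34 ± 0.08, SE; limma adjusted p = 0.0306). Per cell its log2 difference was −0.02. In KO FoB 0 of these genes passed. More passed between the wild types. After rescaling, 4 of the 35 enzymes were higher in WT MZB than in WT FoB and 12 lower. Of the 51 subunits 6 were higher and 27 lower, where 25.0 and 24.9% of all genes were called. Smyd2 had the highest difference of the 35, at log2 2.47 rescaled and 3.06 per cell, above the 0.92 rescaled of Suv39h2, the highest member. After rescaling, the LSD1 partners Hdac1 and Hdac2 stood at 19.0 ± 1.31 and 3.67 ± 0.510 in KO MZB (SD, n = 2) and 16.8 ± 0.443 and 4.18 ± 0.113 in WT MZB (SD, n = 3), and the LSD1 paralog gene Kdm1b at 1.68 ± 0.00573 in KO MZB (SD, n = 2) and 1.91 ± 0.205 in WT MZB (SD, n = 3). Per cell all 3 had differences above 0, the largest that of Hdac1 (log2 0.505). None of these 3 passed on either scale. Of the members, Kdm4a and Kdm4c lie on chromosome 4 with Kdm1a, 18.37 and 62.14 Mb away.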

How the data were processed

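Each gene has 1 deposited signal value in each of 10 libraries, in mRNA per cell as the authors name it. STAR and mm10 are named per the submitters' processing notes; the counter, annotation, strand setting and conversion of reads to molecules were not given in the sources used here. Of 9690 genes, 9681 were matched to symbols through Entrez identifiers (GRCm38.p6). Whole reads were worked back in 100% of genes (no value off by more than 2.9e-05 reads), and what 1 read was worth followed the inverse of transcript length across 9255 genes (Spearman 0.830), so that values are per length.

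The test was limma 3.58.1 (lmFit, eBayes with trend; R 4.3.3) on log2(value + 0.3) over all genes and 10 libraries, 1 coefficient per group, with Benjamini-Hochberg adjustment and a threshold of 0.05. A floor of 0.3 in 2 libraries removed 0 genes. Fold changes of low genes are understated by the pseudocount. For rescaling, 0.3 of genes were trimmed by ratio and 0.05 by level; factors were 0.625 to 1.761. Python 3.11.15 and matplotlib 3.10.9 made tables and plots, and the steps were tested on simulated data. Alternatives were other pseudocounts and floors, no trend, compared groups alone, the replicate number as a block, median-ratio factors, limma voom on reads and leaving out each library; a trimmed mean weighted by reads was added after seeing the data.

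The members and lists were chosen with earlier results of these data known. The text gives values in every library for members called in a knockout comparison and for the 3 with the largest called rescaled difference in each direction between the wild types, and means or library values for the highest member and the member of smallest p of each role.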

Additional observations from a re-analysis of the deposited data

How the results depend on the processing

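In KO MZB against WT MZB, the 8 members called per cell became 1 with the replicate number as a block and 0 to 17 on leaving out each library in turn, and the 1 member called after rescaling became 0 with a pseudocount of 1, 0 with the replicate block, 5 on the compared groups alone, 5 with limma voom on reads and 0 to 4 on leaving out each library. In WT MZB against WT FoB, 58 members per cell became 41 to 61 and 28 after rescaling became 17 to 30 on leaving out each library, and 52 and 24 with the replicate block. In KO FoB the count was 0 under every alternative run. For the difference of knockout effects, 0 became 1 per cell with a pseudocount of 1, 1 after rescaling with limma voom on reads, and 0 to 3 per cell and 0 to 1 after rescaling on leaving out each library. No called member turned direction; rescaled Kdm5b also lost its call with the replicate block (limma, Benjamini-Hochberg adjusted p = 0.114). The numbers are not stated to pair libraries. Deviations from the group mean of same-numbered libraries correlated at 0.187 and 0.149 for KO MZB and WT MZB, and 0.061 and 0.006 for KO FoB and WT FoB. For WT MZB and WT FoB they correlated at 0.033 and −0.114. In each comparison 1 group has only 2 libraries, whose deviations mirror each other, so that the 2 coefficients are not independent. Whether the numbers pair libraries cannot be told from them. Where an arm was left with 1 library, it was assumed to vary like the other groups. Members on few reads, such as Sirt5 with a mean of 49.9, allow only large differences to pass.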
